A study of Mus musculus with 24 samples.

Results

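Nuclear genes for subunits of the respiratory complexes II, III, IV and V were followed in a mouse acute myeloid leukaemia line in which Ogdh was knocked down. A gene was taken as a member when its symbol was Sdha, Sdhb, Sdhc or Sdhd, or began with Uqcr, Cox4, Cox5, Cox6, Cox7, Cox8 or Atp5, with 6 pseudogenes marked -ps left out. This gave 46 of the 53465 genes in the count table, with 4 for complex II, 8 for complex III, 18 for complex IV and 16 for complex V.

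The respiratory chain of the inner mitochondrial membrane passes electrons from NADH and succinate to oxygen and uses the proton gradient so made to drive ATP synthesis. Complex II, succinate dehydrogenase, belongs both to the chain and to the citric acid cycle, where it oxidises succinate. Complex III passes electrons from ubiquinol to cytochrome c, complex IV passes them on to oxygen, and complex V, the ATP synthase, turns the gradient into ATP. Ogdh encodes the first enzyme of the 2-oxoglutarate dehydrogenase complex, the step of the citric acid cycle that makes succinyl-CoA and NADH ahead of complex II.

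The cells were RN2 cells, a line with the genotype Mll-Af9 and NrasG12D, which all groups share. They carried 1 of 3 retroviral, doxycycline-inducible short hairpin RNAs, namely shOgdh346, shOgdh2081 or the control shRen713. Each hairpin was represented by 2 clonal isolates, which are clones 1 and 5 for shOgdh346, clones 3 and 5 for shOgdh2081 and clones 2 and 7 for shRen713. Each clone was sequenced on day 4 of doxycycline and on day 0, untreated, in 2 libraries each, so that 24 libraries form 6 groups of 4. The labels do not say whether the 2 libraries of a clone and day came from separate cultures, so their counts were added and the clone was taken as the replicate.

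Total counts ran from 7209186 to 20705468 per library, and the 46 members together took between 0.549% and 0.935% of them. Ogdh itself was at 34.96, 34.9, 52.8 and 57.9 CPM (read counts scaled to the library's size) in the day 4 libraries of shOgdh346 and at 68.4, 70.9, 32.2 and 37.8 CPM in those of shOgdh2081, against 205, 206, 237 and 252 CPM in the control libraries of that day. Its level on day 4 was 26.99% and 37.0% of that on day 0 in the shOgdh346 clones and 33.1% and 21.5% in the shOgdh2081 clones, against 98.6% and 98.98% in the control clones. On day 0, shOgdh346 clones already held less Ogdh, at 128 and 148 CPM, than the control clones, at 208.5 and 247 CPM. So did clone 5 of shOgdh2081, at 166 CPM, while its clone 3, at 208.5 CPM, was level with control clone 2. The cells changed in other ways over the same days. Of 10 markers of mature neutrophils, 8 rose with the Ogdh hairpins, and their summed level was 6462 to 43482 CPM in the day 4 Ogdh libraries, against 272 to 1326 CPM in the day 4 control libraries. Of 9 leukaemia and myeloid markers, 4 rose and 2 fell. At low levels, 2 of 3 tested megakaryocyte markers, 2 of 2 stromal markers and 1 of 1 erythroid marker rose, neither of 2 tested B cell markers passed the test, no T cell marker was abundant enough to test, and Hbb-bs, Cd3e, Col1a2 and Dcn were at 0 in all 24 libraries. The part of these shifts in the results below was not tested. In bulk RNA, fewer cells of a type cannot be told apart from less RNA per cell.

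Of the 46 members, 41 were abundant enough to test, and 5 of the 18 complex IV genes were not. The measure used throughout is the net change on the log2 scale, which is the change between day 4 and day 0 with an Ogdh hairpin minus the same change with shRen713, averaged over both Ogdh hairpins unless one is named. It was fitted with edgeR over all 14249 genes tested, with a block for the clone, and a gene is said to have risen or fallen where its adjusted p was under 0.05. By this measure 18 of the 41 members fell and 0 rose. That is 43.9% that fell, while 19.8% of all genes tested fell and 17.9% rose. A further 6 members had an unadjusted p under 0.05. The net change was below 0 for 38 of 41 members and for 50.2% of all genes tested, and the median over the members was -0.26.

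In complex II 2 of 4 fell (median net change -0.30), in complex III 5 of 8 (median -0.32), in complex IV 1 of 13 (median -0.17) and in complex V 10 of 16 (median -0.41). The difference between complexes was not tested. The control rests on 2 clones, and without clone 2 or without clone 7 of shRen713 the number of members that fell was 4 of 41 in either case (9.76%). Of all genes 8.20% fell without clone 2 and 7.30% without clone 7, so with 1 control clone the members' share was near the background. Without the clone block 6 of 41 fell (14.6%), where 11.2% of all genes did, which is also near it. The members Atp5g1, Atp5g2 and Atp5o fell in all 39 alternative settings.

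**Figure D1:**
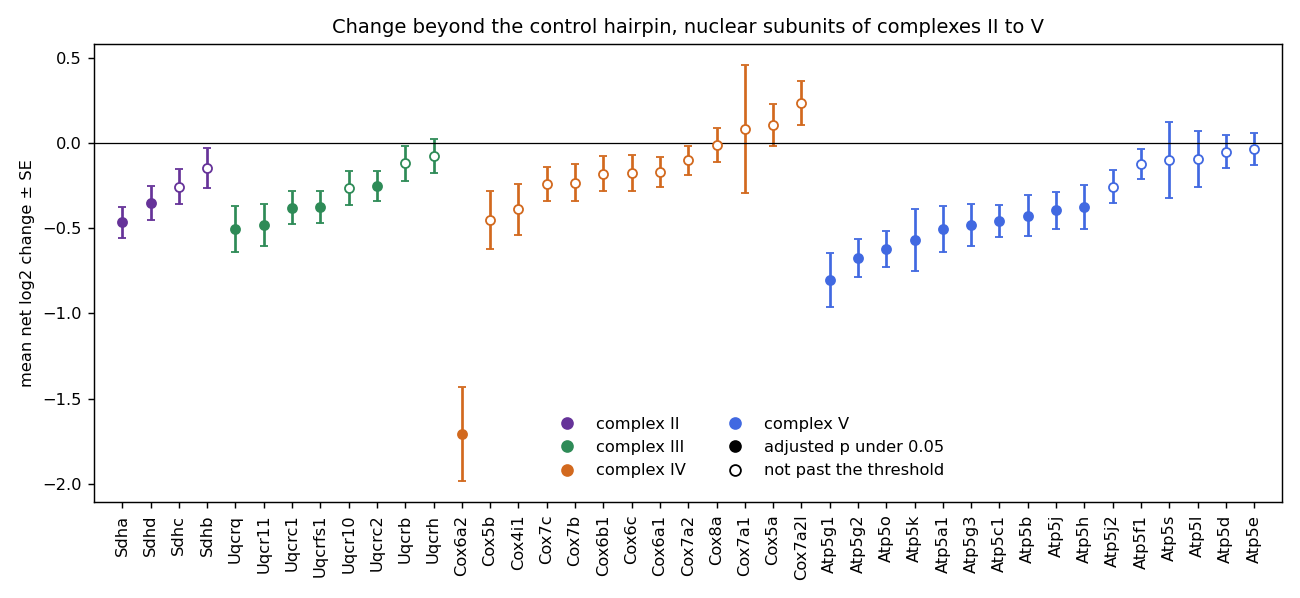
Mean net log2 change (day 4 minus day 0 with the Ogdh hairpins, minus the same with shRen713) with its standard error for the 41 tested members, sorted within each complex. Filled points have an adjusted p under 0.05; they are all below 0, and Cox6a2 at -1.71 is the lowest.

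Added up, the members of complex V were at 3338 ± 319 CPM on day 4 and 4995 ± 111 CPM on day 0 in the Ogdh clones (n = 4, SD), against 4372 ± 388 and 4945 ± 475 CPM for the control clones (n = 2, SD). Complex III stood at 847 ± 64.9 CPM on day 4 and 1109 ± 21.1 CPM on day 0 in the Ogdh clones, against 1045 ± 47.7 and 1120 ± 58.9 CPM for the control clones. For complex II the sums were 583 ± 44.8 CPM on day 4 and 794 ± 26.8 CPM on day 0 in the Ogdh clones, against 753 ± 83.0 and 799 ± 81.6 CPM for the control clones. Within complexes II, III and V, each of the 4 Ogdh clones had on day 4 a lower sum than either control clone. The sum of complex IV was 1486 ± 114 CPM on day 4 and 1826 ± 36.2 CPM on day 0 in the Ogdh clones, against 1667 ± 87.1 and 1836 ± 147 CPM for the control clones. The day 4 sums of the Ogdh clones, 1375 to 1587 CPM, also lay below those of the control clones, 1605 and 1729 CPM, by a narrow gap.

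**Figure D2:**
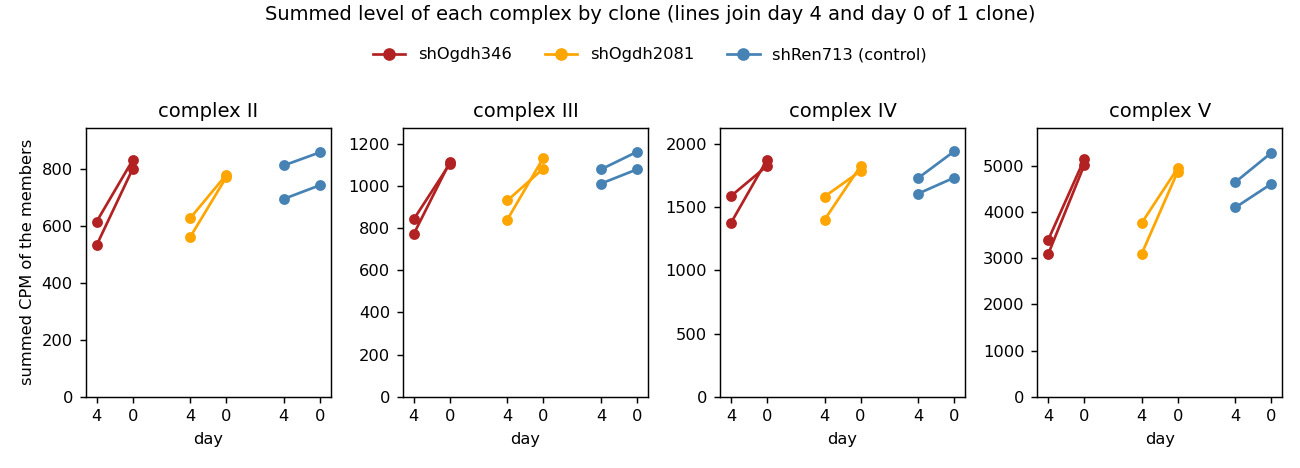
Summed CPM of the members of each complex on day 4 and day 0, with a line for each clone. On day 4 the Ogdh clones lie below both control clones in every panel, with the smallest gap for complex IV (1587 against 1605 CPM), while the day 0 points of the 3 hairpins overlap.

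Promoters of many respiratory genes are known to hold sites for NRF1 and for ETS family factors such as GABP, and 4 promoters are shown here because most members with the NRF1 core fell. They are of 3 that did and of Cox6a1, which did not pass the test. RefSeq promoters (GRCm38.p6, from 250 bases before to 50 bases after the start) were found for 36 of the 46 members. The NRF1 core searched was GCGC followed by any base and then TGCGC, and the ETS core was CCGGAAG, on either strand. The sequences below run 5′ to 3′ on the gene's strand, with matches to either core in capitals, and stop short of any annotated exon of the gene. Sdhd lies at chr9:50603850-50604099 (minus strand), Sdha at chr13:74350281-74350490 (minus), Atp5h at chr11:115419963-115420169 (minus) and Cox6a1 at chr5:115348982-115349208 (minus).
Sdhd: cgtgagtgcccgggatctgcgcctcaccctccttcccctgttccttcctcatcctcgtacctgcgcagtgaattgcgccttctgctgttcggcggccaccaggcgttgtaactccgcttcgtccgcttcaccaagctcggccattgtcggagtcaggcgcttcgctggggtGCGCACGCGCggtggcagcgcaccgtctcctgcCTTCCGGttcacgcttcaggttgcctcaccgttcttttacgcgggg
Sdha: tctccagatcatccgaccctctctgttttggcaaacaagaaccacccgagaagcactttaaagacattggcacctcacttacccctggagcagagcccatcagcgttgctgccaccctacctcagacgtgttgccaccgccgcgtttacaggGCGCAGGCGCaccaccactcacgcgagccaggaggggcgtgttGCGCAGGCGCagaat
Atp5h: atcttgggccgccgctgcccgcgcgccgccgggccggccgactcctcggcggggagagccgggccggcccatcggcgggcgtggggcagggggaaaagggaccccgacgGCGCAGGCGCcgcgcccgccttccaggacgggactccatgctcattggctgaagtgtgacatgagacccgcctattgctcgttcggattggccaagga
Cox6a1: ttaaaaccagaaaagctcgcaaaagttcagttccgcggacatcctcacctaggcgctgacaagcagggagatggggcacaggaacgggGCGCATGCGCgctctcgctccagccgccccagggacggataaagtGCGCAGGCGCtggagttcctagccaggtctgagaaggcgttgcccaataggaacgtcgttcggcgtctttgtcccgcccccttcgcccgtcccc
Distances are to the start used by the promoter windows, which is not the annotated gene start. For Sdha, Atp5h and Cox6a1 it lies inside the annotated gene, and for Sdhd ahead of it. Exons of neighbouring genes were not looked for or left out. A printed stretch, that of Sdhd included, may therefore hold part of another gene, and its cores cannot be assigned to the named gene alone. In Sdhd the NRF1 core began 79 bases and the ETS core 46 bases before that start. Sdha had NRF1 cores at 98 and 55 bases, Atp5h had 1 at 141 bases, and Cox6a1 had 2, at 162 and 117 bases. The NRF1 core was present in 10 of 36 member promoters (27.8%) and in 5.19% of the promoters of all 27025 genes. The ETS core was present in 12 of 36 (33.3%) and in 9.93% of all genes. The 12 include Atp5h and Cox6a1, whose ETS cores lie in the part of the window that is not printed. The 27025 genes include many that were not tested here. Of the tested genes with a promoter, 1154 held the NRF1 core and 8801 did not. For the ETS core these numbers were 2040 and 7915. Both cores were thus more frequent among tested genes than among all 27025. Of the 33 tested members with a promoter, 9 of 10 with the NRF1 core fell, the exception being Cox6a1, and 5 of 23 without it fell. The core was in 2 of 3 promoters of complex II, 1 of 5 of complex III, 1 of 13 of complex IV and 6 of 15 of complex V. The 1 complex IV member that fell, Cox6a2, had no promoter here, so the split by core overlaps a split by complex. Among the 9, the calls for Atp5h and Atp5k were lost in 14 and 8 of 39 alternatives. Over all tested genes with a promoter the shares that fell were 25.9% with the NRF1 core and 21.8% without it. With the ETS core 5 of 12 members fell and without it 9 of 21. These are descriptions of letters in a window and no test was made of them.

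In the coordinates of the deposited table (GRCm38), 6 of the genes given library by library below lie as follows. Sdha is annotated at chr13:74322254-74350280 on the minus strand. Uqcr11 is annotated at chr10:80402997-80406830 on the minus strand. Cox6a2 is annotated at chr7:128205435-128206387 on the minus strand. Atp5g1 is annotated at chr11:96068852-96075670 on the minus strand. Atp5g2 is annotated at chr15:102662864-102672352 on the minus strand. Atp5o is annotated at chr16:91684398-91931687 on the minus strand.

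In complex II, the catalytic subunit Sdha and the membrane anchor Sdhd fell, while the iron-sulphur subunit Sdhb and the other anchor, Sdhc, did not pass the test. Sdha, which binds FAD and oxidises succinate, was at 221, 223, 249.6 and 239 CPM in the day 4 libraries of shOgdh346 and at 253, 246, 239 and 232 CPM in those of shOgdh2081, against 310.1, 297, 358 and 347 CPM in the control libraries of that day. Day 0 levels were 338, 344, 351 and 355 CPM with shOgdh346 and 322, 343, 319 and 344 CPM with shOgdh2081, against 320.4, 321, 346 and 361 CPM in the controls. All 8 day 4 Ogdh libraries lay below all others, and the day 0 groups overlapped. The net change of Sdha was -0.46 ± 0.09 (SE, adjusted p = 0.00395), and it fell with each hairpin, at -0.53 (adjusted p = 0.00469) for shOgdh346 and -0.40 (adjusted p = 0.0216) for shOgdh2081. Sdhd, whose promoter is shown above, was at 159.6, 159.8, 195 and 179 CPM on day 4 with shOgdh346 and at 195, 184, 171 and 159 CPM with shOgdh2081, against 212, 204, 249 and 239 CPM in the day 4 control libraries. Its net change was -0.35 ± 0.10 (SE, adjusted p = 0.0218), from day 0 levels of 238 ± 8.93 CPM in the Ogdh clones and 240.0 ± 28.6 CPM for the control clones (SD, n = 4 and 2).

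Sdhb, which carries the iron-sulphur clusters, was at 70.8, 67.7, 80.5 and 78.1 CPM with shOgdh346 and 85.4, 81.3, 63.7 and 58.7 CPM with shOgdh2081 on day 4, against 69.02, 74.6, 88.3 and 92.7 CPM in the controls. These groups overlapped, and between day 4 and day 0 the change of Sdhb in the control clones was -0.33 on the log2 scale (adjusted p = 0.0704). Its net change was -0.15 ± 0.12 (SE, adjusted p = 0.353). Sdhc was at 85.7, 84.3, 99.5 and 99.8 CPM with shOgdh346 and 103, 103, 96.96 and 88.3 CPM with shOgdh2081 on day 4, against 113, 111, 127 and 116 CPM in the controls. The day 4 groups did not overlap, but the net change of -0.26 ± 0.10 (SE, adjusted p = 0.0821) missed the threshold. Between the 4 members the net changes ranged from -0.46 to -0.15.

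In complex III, both core proteins and the Rieske protein fell, as did 2 of the 5 small subunits. Uqcrfs1, the Rieske iron-sulphur protein that takes electrons from ubiquinol, was at 95.9, 89.2, 92.2 and 81.9 CPM on day 4 with shOgdh346 and at 101, 95.9, 88.6 and 78.5 CPM with shOgdh2081, against 103, 100.4, 128 and 129 CPM in the control libraries. On day 0 the values were 136, 120.4, 134 and 134 CPM with shOgdh346 and 132, 126, 130.4 and 118 CPM with shOgdh2081, against 121, 108, 141 and 132 CPM in the controls. On day 4 the groups touched, with the highest Ogdh library at 100.7 CPM and the lowest control library at 100.4 CPM. The net change of Uqcrfs1 was -0.37 ± 0.09 (SE, adjusted p = 0.0118).

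Uqcrc1, the larger core protein, was at 139, 151, 162 and 151 CPM on day 4 with shOgdh346 and at 173, 171, 153 and 149.7 CPM with shOgdh2081, against 203, 213, 215 and 216 CPM in the controls, and the groups did not overlap. Before induction, on day 0, the values were 257, 233, 239 and 234 CPM with shOgdh346 and 219, 234, 225 and 230.1 CPM with shOgdh2081, against 247, 229, 251 and 243 CPM in the controls. The net change was -0.38 ± 0.10 (SE, adjusted p = 0.0146). Uqcrc2, the other core protein, fell, at -0.25 (adjusted p = 0.0493), the weakest call among the members. It was lost in 26 of 39 alternatives, and 19.8% of the exon bases of Uqcrc2 are overlapped on the opposite strand by Pdzd9, whose reads cannot be told apart without a known strand setting.

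Uqcr11, a small subunit bound at the edge of the complex, was at 45.3, 43.2, 59.4 and 52.4 CPM on day 4 with shOgdh346 and at 54.4, 51.6, 46.7 and 44.03 CPM with shOgdh2081, against 68.6, 68.9, 73.6 and 78.7 CPM in the day 4 controls. On day 0 it was at 74.6, 71.6, 71.3 and 74.2 CPM with shOgdh346 and at 67.7, 72.2, 70.04 and 68.7 CPM with shOgdh2081, against 71.2, 67.3, 82.2 and 75.96 CPM in the controls. The 8 day 4 Ogdh libraries, at no more than 59.4 CPM, lay below the other 16, at no less than 67.3 CPM. Its net change was -0.48 ± 0.12 (SE, adjusted p = 0.0152). Uqcrq, the small subunit near the ubiquinone site, had the lowest net change of the complex, -0.50 ± 0.14 (SE, adjusted p = 0.0177), with 88.6 ± 12.4 CPM on day 4 in the Ogdh clones, against 133 ± 9.01 CPM for the control clones. The hinge protein Uqcrh, which sits between the Rieske protein's partner cytochrome c1 and cytochrome c, was at -0.07, Uqcrb at -0.12 and Uqcr10 at -0.26, and none of these passed the test.

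In complex IV none of the 10 widely expressed subunits fell by the net change (edgeR), with 3 of them (Cox4i1, Cox5b and Cox7c) at an unadjusted p under 0.05, although between day 4 and day 0 9 of the 10 fell with shOgdh346, where 29.3% of all genes fell, and 6 of the 10 with shOgdh2081, where 25.9% did. In the control clones 0 of the 10 fell by the same comparison (edgeR), where 2.44% of all genes did, with 0 at an unadjusted p under 0.05, but all 10 changes were below 0. Cox4i1, the widely expressed form of the regulatory subunit 4, was at 199, 204, 270.3 and 259 CPM on day 4 with shOgdh346 and at 258, 246, 182 and 188 CPM with shOgdh2081, against 284, 297, 294 and 327 CPM in the day 4 controls. Day 0 levels were 368, 312, 366 and 332 CPM with shOgdh346 and 338, 330.4, 352 and 325 CPM with shOgdh2081, against 359.6, 316, 377 and 334 CPM in the controls. On day 4 every Ogdh library lay below every control library, but clone 1 of shOgdh346 and clone 5 of shOgdh2081 were much lower than their sister clones, and the net change of -0.39 ± 0.15 (SE, adjusted p = 0.0724) missed the threshold. The call was gained in 8 of 39 alternatives, among them those without replicate 1 of day 0 control clone 7 (adjusted p = 0.0464) and without replicate 1 of day 4 shOgdh346 clone 5 (adjusted p = 0.0475).

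Cox5b, a zinc-binding subunit on the matrix side, showed the same split between clones. It was at 66.98, 69.9, 93.6 and 87.5 CPM on day 4 with shOgdh346 and at 100.2, 101, 78.9 and 78.3 CPM with shOgdh2081, against 106, 114, 116 and 117 CPM in the day 4 controls, and its net change was -0.45 ± 0.17 (SE, adjusted p = 0.0734). It was called without replicate 1 of day 0 control clone 7 (adjusted p = 0.0498), of day 0 shOgdh346 clone 5 (0.0312) or of day 4 shOgdh346 clone 5 (0.0392). Cox7c, a small membrane subunit, was at 49.1, 52.2, 55.9 and 52.1 CPM on day 4 with shOgdh346 and at 58.6, 55.8, 56.9 and 49.1 CPM with shOgdh2081, against 59.3, 56.7, 66.02 and 66.8 CPM in the controls. Its groups overlapped, its net change was -0.24 ± 0.10 (SE, adjusted p = 0.0866), and 19.5% of its windows of read length occur in other genes, mainly Gm10012. Without replicate 1 of day 4 shOgdh346 clone 5 it was called, at -0.27 (adjusted p = 0.0490). The net changes of Cox7b, Cox6b1, Cox6c, Cox6a1 and Cox7a2 lay between -0.23 and -0.10, Cox8a was at -0.01 ± 0.10 (SE, adjusted p = 0.946) and Cox5a at 0.10 ± 0.12 (SE, adjusted p = 0.537). The sign for Cox8a turned to 0.02 with RLE scaling and 0.03 with upper quartile scaling, so no direction can be given for it. On day 4 itself, without subtracting day 0, a fit with no clone block called Cox4i1, Cox5b and Cox6a1 lower in the Ogdh clones than in the control clones. In that fit each clone enters on both days, so its degrees of freedom are overstated.

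The 2 complex IV members whose levels moved farthest apart from the rest were an isoform and a relative of a subunit. Cox6a2, the form of subunit 6A known from heart and skeletal muscle, was at 0.256, 0.518, 1.06 and 0.985 CPM on day 4 with shOgdh346 and at 2.08, 2.06, 3.32 and 2.23 CPM with shOgdh2081, against 2.73, 2.62, 5.83 and 5.88 CPM in the day 4 controls. Before induction, on day 0, the values were 5.30, 3.55, 7.96 and 6.53 CPM with shOgdh346 and 4.76, 3.76, 7.13 and 3.85 CPM with shOgdh2081, against 4.58, 2.65, 7.87 and 5.51 CPM in the controls. With shOgdh346 all 4 day 4 libraries lay below every other library, while with shOgdh2081 they overlapped those of control clone 2. The net change was -1.71 ± 0.28 (SE, adjusted p = 0.00167), with -2.73 (adjusted p = 0.000586) for shOgdh346 and -0.69 (adjusted p = 0.13) for shOgdh2081. The difference between the hairpins was -2.04 ± 0.35 (SE, adjusted p = 0.0896), which missed the threshold in the main test and passed it in 3 of 39 alternatives. These values rest on few reads, with 2, 6, 16 and 9 counts in the day 4 libraries of shOgdh346, and Cox6a2 averaged 3.88 CPM over the 24 libraries. Without the clone block the mean net change of Cox6a2 was -1.70 with an adjusted p of 0.102. The 2 clones of shOgdh346 and those of shRen713 differ in its level on both days, while those of shOgdh2081 overlap on day 0. Cox6a1, the widely expressed form, made up 98.9% ± 0.743 of the summed CPM of both on day 4 and 97.1% ± 0.629 on day 0 in the Ogdh clones (n = 4, SD), against 97.5% ± 1.20 and 97.3% ± 0.983 for the control clones (n = 2, SD). On the opposite strand, Itgad overlaps 10.3% of the exon bases of Cox6a2.

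Cox7a2l is related to subunit 7A and joins complexes III and IV into supercomplexes. Of all genes tested, 28.2% had all 4 Ogdh clones above both control clones in the change over 4 days. Among the 41 tested members Cox7a2l was the single one. It was at 109.6, 104, 133 and 118 CPM on day 4 with shOgdh346 and at 110.3, 104, 100.3 and 102 CPM with shOgdh2081, against 100.1, 101, 90.3 and 85.7 CPM in the controls. On day 0 it was at 104, 95.4, 96.1 and 86.2 CPM with shOgdh346 and at 96.6, 82.8, 103 and 92.1 CPM with shOgdh2081, against 114, 95.98, 93.03 and 75.7 CPM in the controls. The net change of 0.24 ± 0.13 (SE, adjusted p = 0.183) did not pass the test. With shOgdh346 alone, day 4 was above day 0 by 0.27 (adjusted p = 0.0478), a call lost in 17 of 39 alternatives. Its share of the summed CPM of Cox7a1, Cox7a2 and Cox7a2l was 43.8% ± 2.66 on day 4 and 36.8% ± 1.92 on day 0 in the Ogdh clones, against 37.9% ± 5.14 and 36.7% ± 6.62 for the control clones. Cox7a2 had the complement, 55.5% ± 2.69 and 62.4% ± 1.90 in the Ogdh clones, against 61.3% ± 5.27 and 62.5% ± 6.67 for the control clones. Cox7a1, the heart and muscle form, was at no more than 3.00 CPM in any library. Since 10.3% of the windows of read length of Cox7a2l also occur in Gm6969, its level and these shares are uncertain.

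Isoforms known mainly from other tissues were otherwise at or near 0. Cox7b2, Cox8b and Cox8c had 0 counts in all 24 libraries, which allows at most 3 counts in each. Cox4i2, known from lung, had 27 counts over the 24 libraries and Cox6b2, known from testis, had 38, and neither was tested.

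Complex V held 10 of the 18 members that fell, spread over the head, the stalk and the membrane ring. All 3 genes for the c subunit of the proton-driven ring fell (median -0.68), as did 3 of 5 subunits of the F1 head, 3 of 4 of the peripheral stalk and 1 of 3 small membrane subunits. Atp5g1, Atp5g2 and Atp5g3 encode the same mature c protein behind different targeting sequences. Atp5g1 was at 40.3, 43.98, 54.1 and 56.5 CPM on day 4 with shOgdh346 and at 59.1, 58.4, 46.3 and 48.02 CPM with shOgdh2081, against 87.5, 81.5, 94.3 and 92.2 CPM in the day 4 controls. Day 0 levels were 105, 102, 93.5 and 89.98 CPM with shOgdh346 and 92.2, 104, 104 and 98.4 CPM with shOgdh2081, against 94.9, 90.3, 108 and 101 CPM in the controls. The highest day 4 Ogdh library, at 59.1 CPM, was well below the lowest of the other 16, at 81.5 CPM. The net change was -0.80 ± 0.16 (SE, adjusted p = 0.00475), with -0.86 (adjusted p = 0.00756) for shOgdh346 and -0.75 (adjusted p = 0.0178) for shOgdh2081.

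Atp5g2 was at 20.4, 20.3, 19.8 and 20.03 CPM on day 4 with shOgdh346 and at 23.1, 22.5, 18.2 and 19.02 CPM with shOgdh2081, against 35.7, 35.3, 35.2 and 32.2 CPM in the day 4 controls. Before induction, on day 0, the values were 44.1, 40.8, 43.1 and 40.3 CPM with shOgdh346 and 41.2, 40.5, 40.2 and 35.2 CPM with shOgdh2081, against 47.1, 41.7, 44.4 and 37.98 CPM in the controls. The day 4 Ogdh libraries again lay below the other 16, and the day 4 control libraries were themselves at the low end of those. The net change was -0.68 ± 0.11 (SE, adjusted p = 0.00183). In GENCODE M21, 35.7% of the 76-base windows of Atp5g2 transcripts also occur in other genes, mainly Gm10175, and 7.21% of those of Atp5g1 occur in 31 other genes, so the split of reads between these copies is uncertain. Atp5g3, the most abundant of the 3 and with no shared window, was at 162 ± 21.7 CPM on day 4 in the Ogdh clones and 223 ± 19.8 CPM for the control clones, with a net change of -0.48 ± 0.12 (SE, adjusted p = 0.013). Together the 3 genes stood at 233 ± 30.2 CPM on day 4 and 413 ± 3.91 CPM on day 0 in the Ogdh clones, against 347 ± 25.1 and 415 ± 40.6 CPM for the control clones. Atp5g3 made up 69.4% ± 0.556 of this sum on day 4 and 66.3% ± 1.19 on day 0 in the Ogdh clones, against 64.3% ± 1.05 and 65.7% ± 1.51 for the control clones.

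In the peripheral stalk, which holds the head still while the ring turns, Atp5o, the oligomycin sensitivity protein, was at 86.1, 81.1, 108 and 97.9 CPM on day 4 with shOgdh346 and at 115, 112, 109 and 101 CPM with shOgdh2081, against 150.1, 151, 166 and 154 CPM in the day 4 controls. On day 0 it was at 172, 168, 183 and 173 CPM with shOgdh346 and at 162, 177, 185 and 168 CPM with shOgdh2081, against 178, 159, 179.6 and 174 CPM in the controls. The highest day 4 Ogdh library was at 115 CPM and the lowest of the other 16 at 150.1 CPM. The net change was -0.62 ± 0.10 (SE, adjusted p = 0.00185). The deposited span of Atp5o begins ahead of its GENCODE M21 start at 91925214, and an antisense gene, Gm15976, overlaps 47.9% of its M21 exon bases, and the reads of the pair cannot be told apart here. The stalk subunits Atp5j (-0.39 (adjusted p = 0.0199)) and Atp5h (-0.37 (adjusted p = 0.0458)) also fell, and Atp5f1, subunit b, was at -0.12 (adjusted p = 0.309). On the opposite strand, Gabpa overlaps 12.7% of the exon bases of Atp5j, and reads there cannot be told apart without a known strand setting. The call for Atp5h was lost in 14 of 39 alternatives, and 14.5% of its windows occur in Gm10250.

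In the F1 head, where ATP is made, the catalytic subunit Atp5b, its partner Atp5a1 and the central shaft Atp5c1 fell. Atp5b was at 1136 ± 114 CPM on day 4 and 1735 ± 55.8 CPM on day 0 in the Ogdh clones, against 1489 ± 154 CPM and 1698 ± 183 CPM for the control clones, and its net change was -0.43 ± 0.12 (SE, adjusted p = 0.0228). Atp5a1 was at 733 ± 88.1 CPM on day 4 and 1215 ± 44.6 CPM on day 0 in the Ogdh clones, against 1034 ± 127 CPM and 1213 ± 126 CPM for the control clones, with a net change of -0.50 ± 0.13 (SE, adjusted p = 0.016). Atp5c1 fell, at -0.46 ± 0.09 (SE, adjusted p = 0.00512). The small head subunits Atp5d and Atp5e were at -0.05 and -0.04, with adjusted p of 0.725 and 0.793. Between day 4 and day 0 Atp5d was at -0.46 with shOgdh346 and -0.23 with shOgdh2081, against -0.30 in the control, and Atp5e at -0.24 and -0.30, against -0.23.

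Of the small membrane subunits, Atp5k (subunit e) fell, at -0.57 (adjusted p = 0.0389). The call was lost in 8 of 39 alternatives, with an adjusted p of up to 0.184 without control clone 2. Among single libraries it was lost without replicate 2 of day 0 shOgdh346 clone 5 (adjusted p = 0.0550), of day 4 control clone 2 (0.0501) or of day 4 control clone 7 (0.0519). Atp5j2 (subunit f) was at -0.26 (adjusted p = 0.0651) and Atp5l (subunit g) at -0.09 (adjusted p = 0.685). Atp5s, coupling factor B, was at -0.10 (adjusted p = 0.758). Atp5l was the single member that fell between day 4 and day 0 in the control clones, at -0.76 ± 0.14 (SE, adjusted p = 0.0162). Its libraries split by replicate number on day 0. Replicate 1 of each clone was at 25.7, 27.1, 30.5, 21.4, 23.2 and 23.01 CPM, while replicate 2 was at 14.4, 15.2, 13.7, 14.5, 10.96 and 14.1 CPM, in the order of clones 1 and 5 of shOgdh346, 3 and 5 of shOgdh2081 and 2 and 7 of shRen713. With the day 0 replicate 1 libraries alone the control change of Atp5l was -1.10 (adjusted p = 0.00131), and with the replicate 2 libraries alone it was -0.22 (adjusted p = 0.541). Of its windows 6.05% occur in 19 other genes.

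**Figure D3:**
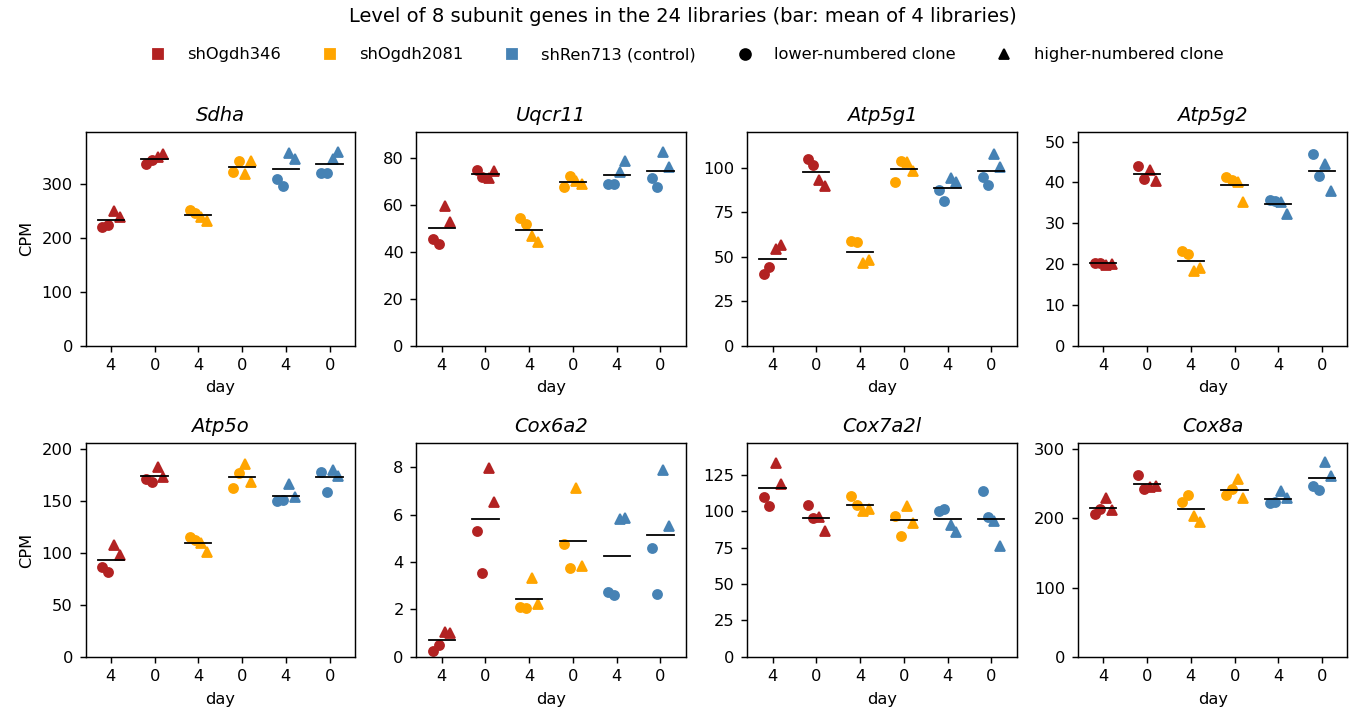
CPM of 8 members in each of the 24 libraries, by hairpin and day, with circles and triangles for the 2 clones of a hairpin and a bar at the mean of the 4 libraries. The day 4 Ogdh libraries lie below all others for Sdha, Uqcr11, Atp5g1, Atp5g2 and Atp5o, are lowest with shOgdh346 for Cox6a2, and overlap the controls for Cox7a2l and Cox8a.

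Each Ogdh hairpin was also tested alone. The net change of shOgdh346 alone fell for 17 of 41 members, against a background of 18.4% of all genes, and that of shOgdh2081 alone for 7 of 41, against 14.2%. The medians were -0.34 and -0.22. The share for shOgdh2081 is near its background. The count for shOgdh346 was 5 without control clone 2, 4 without control clone 7 and 7 without its own clone 1. For shOgdh2081 it was 0 without either control clone, 13 without its clone 3 and 2 without its clone 5. In the fits without a control clone the shares of all genes that fell were 8.10% (clone 2) and 7.28% (clone 7) for shOgdh346, and 4.15% and 3.52% for shOgdh2081. For the fits without an Ogdh clone, here and over time below, the shares of all genes are not given. Those counts therefore cannot be set against a background. The comparisons share the control clones, so they are not independent. The difference between the hairpins passed the test for 0 of 41 members in edgeR, with 2 at an unadjusted p under 0.05, Cox6a2 and Uqcrc2, and for 1 with DESeq2. Of all genes, 0.105% passed. Between day 4 and day 0, without the control, 34 members fell and 1 rose with shOgdh346 (29.3% and 30.2% of all genes) and 30 fell with shOgdh2081 (25.9%), while 1 fell with shRen713 (2.44%). Without clone 1 of shOgdh346 22 fell with that hairpin, and without clone 5 of shOgdh2081 15 fell with the other.

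By clone, 28 of 41 members had all 4 Ogdh changes below both control changes, where 29.2% of all genes did, and 1 had them all above, where 28.2% did. In complex II this held for 3 of 4 members, in complex III for 6 of 8, in complex IV for 7 of 13 and in complex V for 12 of 16. The median change of the members was -0.57 in clone 1 and -0.37 in clone 5 of shOgdh346, and -0.27 in clone 3 and -0.46 in clone 5 of shOgdh2081, against -0.08 in clone 2 and -0.15 in clone 7 of shRen713. Over all tested genes the median lay between -0.007 and 0.021 in each clone. The level of Ogdh on day 4 was 34.7 CPM in clone 1 and 54.8 CPM in clone 5 of shOgdh346, and 69.0 CPM in clone 3 and 35.6 CPM in clone 5 of shOgdh2081. In the same clones the neutrophil markers summed to 42912, 19651, 6642 and 12165 CPM. With 4 clones, no relation of the members' medians to either was tested.

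**Figure D4:**
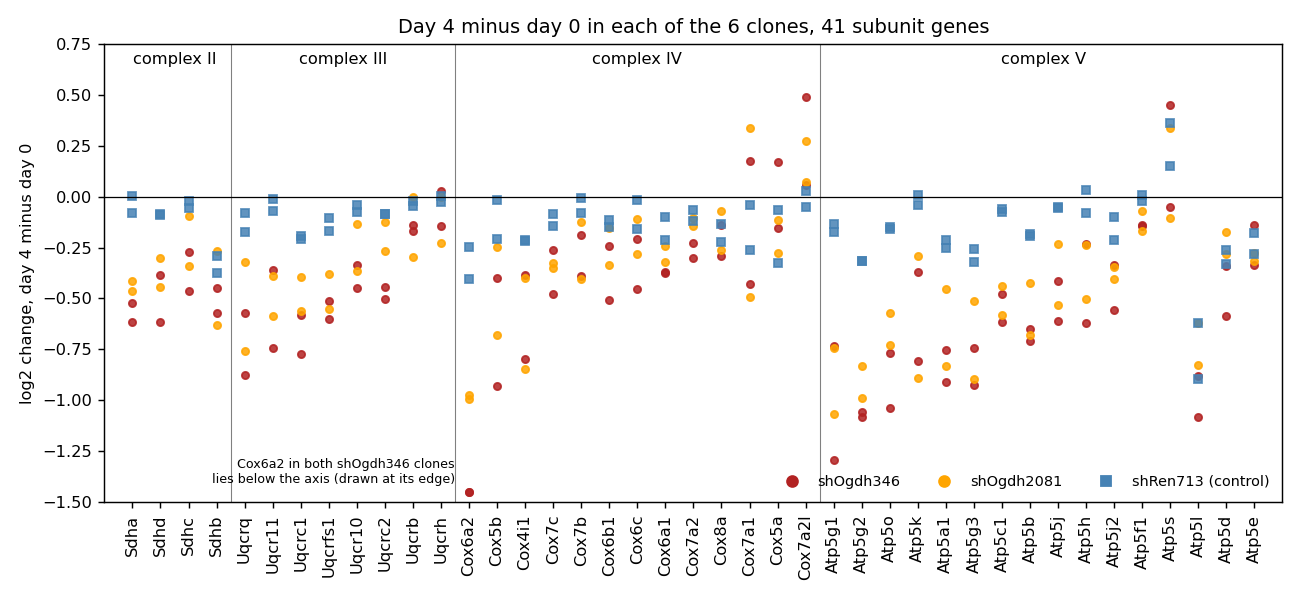
Change between day 4 and day 0 on the log2 scale for the 41 tested members in each of the 6 clones, in the order of the net change within each complex. The 4 Ogdh clones lie below both control clones for 28 members and above both for Cox7a2l, and the control clones share the lower level on day 4 for Atp5l.

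Levels on day 4 itself came from a fit with no clone block. Each clone enters that fit on both days, so its degrees of freedom are overstated and its p-values may be too small. In it, 23 of 41 members were lower in the Ogdh clones than in the control clones on day 4, where 21.2% of all genes were lower. The number was 14 without control clone 2, 6 without control clone 7, 10 without clone 1 of shOgdh346 and 14 without clone 5 of shOgdh2081, where 12.2%, 11.5%, 15.8% and 17.96% of all genes were lower. The 23 were 3 of 4 in complex II, 6 of 8 in complex III, 4 of 13 in complex IV and 10 of 16 in complex V. For shOgdh346 the number was 20, against a background of 19.5%, and for shOgdh2081 it was 10, against 15.2%. On day 0 edgeR found 0 of 41 members and 0% of all genes to differ, with 0 members at an unadjusted p under 0.05, and the members' median difference was -0.003 (log2).

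Per length of the deposited transcript, the members differed widely in level on day 0 over the 6 clones. The head subunits Atp5b and Atp5a1 led complex V, at 407 ± 22.3 and 387 ± 21.03 CPM per kilobase (SD, n = 6), and Atp5c1 followed at 164 ± 8.92. All genes were measured in the same clones, so these SDs are not the spread of a difference between genes, which was not tested. Cox8a, the smallest widely expressed subunit of complex IV, was the highest of all members at 459 ± 24.4, with Cox6b1 at 265 ± 13.8, Cox6a1 at 259 ± 14.8 and Cox4i1 at 222 ± 6.83. In complex III the highest was Uqcr10, at 160 ± 5.84, and the lowest Uqcrc1, at 57.4 ± 2.44. In complex II Sdhd was at 194 ± 11.8 and Sdhc at 36.2 ± 1.85. The deposited length of several genes, such as 4912 bases for Atp5g1 and 6443 for Atp5l, is far beyond a coding sequence, so these levels depend on which transcript was counted as the length.

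Other genes of the pathway were counted by the same test, the mean net change, in which 19.8% of all genes fell and 17.9% rose. Of 36 nuclear subunits of complex I, 15 fell and 2 rose (median -0.36), and the 2 that rose, Ndufa13 (0.47 (adjusted p = 0.00361)) and Ndufv3 (0.32 (adjusted p = 0.0491)), are named because of it. Ndufv1, which binds NADH, was at -0.65 (adjusted p = 0.00101) and Ndufa5, an accessory subunit, at -0.87 (adjusted p = 0.00104). Of 5 tested subunits and carriers with other names, 3 fell, which are cytochrome c1 of complex III (Cyc1, -0.55 (adjusted p = 0.00391)), Ndufa4, now counted with complex IV (-0.41 (adjusted p = 0.00821)), and the carrier cytochrome c (Cycs, -0.45 (adjusted p = 0.0226)).

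Assembly factors of complexes II and III fell in 5 of 10 cases and none rose (median -0.50). Bcs1l, which inserts the Rieske protein, was at -0.79 (adjusted p = 0.00419), and Uqcc1, which helps to make cytochrome b, at -0.41 (adjusted p = 0.0124). For complex V, 3 of 5 fell (median -0.49), which are the assembly factor of the F1 head Atpaf2 (-0.57 (adjusted p = 0.00593)), the inhibitor Atpif1 (-0.52 (adjusted p = 0.0117)) and Tmem70 (-0.36 (adjusted p = 0.0381)), which helps to build the ring. For complex IV, 6 of 21 tested factors fell and none rose (median -0.12), a share of 28.6% that is close to the 19.8% of all genes. They include Lrpprc (-0.69 (adjusted p = 0.00201)), which stabilises mitochondrial mRNA, Taco1 (-0.95 (adjusted p = 0.00226)), an activator of Cox1 translation, and Cox10 (-0.50 (adjusted p = 0.0112)), which acts in making the haem of the complex.

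Of 10 tested genes for cristae and inner membrane organisation 7 fell and none rose (median -0.57), among them Immt of the cristae junctions (-0.57 (adjusted p = 0.0022)) and the prohibitin Phb2 (-0.63 (adjusted p = 0.00576)). Of 15 tested regulators of respiratory gene transcription, 7 fell and 2 rose (median -0.35). The coactivators Pprc1 (-0.64 (adjusted p = 0.000779)) and Ppargc1b (-1.33 (adjusted p = 0.00281)) fell, as did Tfam, which packages and transcribes mitochondrial DNA (-0.64 (adjusted p = 0.00201)), and Tfb1m, an rRNA methyltransferase of mitochondria (-1.12 (adjusted p = 0.00176)). Those that rose were Esrra (0.51 (adjusted p = 0.00939)) and Rela (0.41 (adjusted p = 0.00856)). The factors whose cores were searched in the promoters, named for that reason, were at -0.25 (adjusted p = 0.0713) for Nrf1 and -0.47 (adjusted p = 0.00352) for the GABP subunit Gabpa. Since Gabpa overlaps Atp5j on the opposite strand, the values of these genes may share reads.

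The mitochondrial genome encodes some of the subunits of complexes III, IV and V. Of its subunits for complexes III to V, mt-Co1 was at 0.41 (adjusted p = 0.0536) and mt-Cytb at -0.07 (adjusted p = 0.757), so neither passed the test. Their summed level was 11874 to 14133 CPM in the day 4 Ogdh libraries, against 9197 to 10803 CPM in the day 4 control libraries. On day 0 it was already 10160 to 12434 CPM in the Ogdh libraries, against 9405 to 10816 CPM in the control libraries. The other 4, mt-Co2, mt-Co3, mt-Atp6 and mt-Atp8, are listed at 0 in all 24 libraries, so nothing can be said of their level.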

How the data were processed

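The authors deposited whole-number counts for each gene in 24 polyA RNA libraries, read as single ends of 76 bases per the labels' protocols. The submitters' processing notes list the build mm10 (GRCm38) and the tools featureCounts 1.6.3, STAR 2.6.1a, Trimmomatic 0.36 and FastQC 0.11.5. The protocols name a human build and an RPKM matrix, which the mouse gene identifiers and whole numbers in the deposited table do not match. How reads with several matches were counted, and whether strand was used, is not given in the sources used here.

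Adding up both libraries of a clone and day gave 12 sums. Genes passing edgeR's filterByExpr (14249) were scaled by TMM and fitted with edgeR 4.0.16 (R 4.3.3, limma 3.58.1), using a robust quasi-likelihood test with a block for the clone and a day 4 term per hairpin, which left 3 residual degrees of freedom. Levels between hairpins came from a fit of the 6 groups, which has no clone block. Each clone enters it on both days, so its residual degrees of freedom are overstated. Adjustment was by Benjamini-Hochberg over all genes tested, and CPM use TMM-scaled totals. The clone comes from the labels. As a check of this pairing, the difference between the 2 clones of a hairpin correlated across genes between days, with r of 0.603 for shOgdh346, 0.668 for shOgdh2081 and 0.838 for shRen713. The code was tested on simulated data. Alternatives were DESeq2 1.42.0, other scalings, filters and blocks, and leaving out each library and clone. Overlaps and shared windows used GENCODE M21.

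Members, gene lists and tests were chosen with earlier results of these data known. The members named with values are all of complex II, the 3 lowest by p in complexes III to V among those averaging 5 CPM or more, and the isoform pairs, and for other lists up to 4 genes with the smallest p. Others, such as Atp5l, Atp5k, Cox6a1, Nrf1, Gabpa and genes that went against their list, were added after their values were seen. P-values of the net change rest on the spread of the changes between the 2 clones of a hairpin, pooled over the hairpins. That spread has 3 residual degrees of freedom and is moderated by a prior taken from all genes (median 6.11 degrees of freedom).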

Additional observations from a re-analysis of the deposited data

Results flagged for a closer look

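Of 131 groups of 4 libraries, 6 held a library whose gap to the other 3 passed Dixon's 95% critical value for 4 values, where chance alone passes about 1 in 20. Sdhd was at 220.7 CPM in replicate 2 of day 0 shOgdh2081 clone 5, and between 234.7 and 237 CPM in the other 3 libraries of the group. In the same library Atp5g2 was at 35.2 CPM, with the other 3 between 40.2 and 41.2 CPM. Uqcrfs1 was at 120.4 CPM in replicate 2 of day 0 shOgdh346 clone 1, with the others between 134 and 136 CPM. Replicate 2 of day 4 control clone 7 was apart for 2 genes, Atp5g2 at 32.2 CPM with the others between 35.2 and 35.7 CPM, and Cox7a1 at 1.38 CPM with the others between 2.00 and 2.11 CPM. Cox6a2 was at 3.32 CPM in replicate 1 of day 4 shOgdh2081 clone 5, with the others between 2.06 and 2.23 CPM.

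On day 0 the members' median difference of replicate 2 from replicate 1 lay between -0.13 and 0.005 (log2) over the 6 clones, while that of all tested genes lay between -0.016 and 0.002. On day 4 the ranges were -0.101 to 0.008 for the members and -0.009 to 0.009 for all tested genes. Gene by gene, the 2 libraries of a clone were less alike on day 0 than on day 4. The mean chi-square per gene between them, over genes with at least 20 counts, was 6.78 to 10.3 on day 0 and 1.61 to 2.94 on day 4. The day 0 sums enter every net change. What the replicate number stands for is not given in the labels.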

How the results depend on the processing

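The share of all genes moves with the setting and is given below for some settings only. Where it is missing, a count of members cannot be set against its background. The test used holds the clone as its replicate block, since the labels pair the days by clone. With no replicate block the number of members that fell was 6 for the mean net change, 6 for shOgdh346 and 1 for shOgdh2081, where 11.2%, 9.79% and 4.97% of all genes fell, and 0 rose between day 4 and day 0 with shOgdh346. With 24 libraries and a clone and replicate block, which counts the 2 libraries of a clone as separate, 28 fell and 1 rose for the mean net change, 28 fell and 1 rose for shOgdh346, 22 fell for shOgdh2081, 2 rose over time with shOgdh346, 16 fell over time with shRen713, 3 fell for the difference between hairpins, and on day 4 there were 23 lower with shOgdh2081 and 1 higher with shOgdh346 and with both.

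Scaling by total counts, which moved the median net change of all genes by -0.115 for shOgdh346 and -0.056 for shOgdh2081, gave 28 members that fell for shOgdh346 (23.8% of all genes), 15 for shOgdh2081 (16.7%), 21 lower with shOgdh2081 on day 4 and 0 that rose over time with shOgdh346. Without the filter on low counts, 11 fell for shOgdh2081, 2 over time with shRen713 and 1 (Cox6a2) for the hairpin difference. With DESeq2, 1 fell for the hairpin difference and 0 rose over time with shOgdh346. With day 0 replicate 1 alone 4 fell over time with shRen713 and 0 rose with shOgdh346. With day 0 replicate 2 alone, 17 fell for shOgdh2081, 1 rose over time with shOgdh2081 and 0 fell over time with shRen713. The sign turned for Cox7a1 with total counts (-0.006) and day 0 replicate 1 (-0.0581), and for Cox8a with RLE (0.0183), upper quartile (0.0334), DESeq2 (0.0183), the 24 libraries (0.0138) and day 0 replicate 2 (0.0039). With a library or clone left out it ranged from -0.1678 to 0.2717 for Cox7a1 and from -0.0682 to 0.0324 for Cox8a. The cause was not tested.

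Leaving out each library or clone gave 4 to 23 members that fell and 0 to 1 that rose for the mean net change, 4 to 21 and 0 to 1 for shOgdh346, 0 to 13 for shOgdh2081, 22 to 35 and 0 to 1 over time with shOgdh346, 15 to 31 with shOgdh2081 and 0 to 3 with shRen713. On day 4 the ranges were 6 to 24 for both hairpins, 4 to 26 for shOgdh346 and 1 to 14 for shOgdh2081. The medians stayed between -0.36 and -0.26 in complex II, -0.38 and -0.28 in complex III, -0.24 and -0.12 in complex IV, and -0.49 and -0.35 in complex V. The lone control clone is then assumed to vary like the other clones. Of the 18 members that fell, 3 did so in all 39 alternatives and 15 lost the call in at least 1, and of 12 others followed 8 gained one.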
